A study of Mus musculus with 18 samples.

Results

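Macrophages isolated from the spleen were compared with whole spleen in wild-type C57BL/6J mice that had breathed filtered air and no particles. The comparison rests on 9 of the 18 RNA libraries of the study, chosen by their labels: 5 macrophage preparations labelled air and 4 whole spleens labelled air, each with a time tag of 30 days. The study set filtered air against PM2.5, fine airborne particles, and its title names erythrocyte turnover. Its other 9 libraries were 5 macrophage preparations and 4 whole spleens from PM2.5-exposed mice. They served here as a repeat of the same contrast and in a joint fit of all libraries, used as an alternative setting. The whole spleens belong to a first experiment and the macrophages to a second, for which the labels mention filtered air after the exposure. Preparation and experiment therefore cannot be told apart in any difference given here. The labels name no transgene, pooling, age or sex for any group, and the method of isolating the macrophages was not found in them. The titles call the libraries biological replicates, and nothing ties a spleen to a macrophage preparation of the same animal.

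The spleen is built of red pulp, through which blood percolates, and white pulp, where B and T lymphocytes gather around arterioles on a network of fibroblastic reticular cells. Red pulp macrophages engulf aged erythrocytes, break their heme down with heme oxygenase and return the iron to plasma through the exporter ferroportin. Their development depends on the transcription factor Spi-C, and they are recognised by F4/80 and VCAM-1 in mice.

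Libraries held 18107264 to 29013034 counts in the macrophage preparations and 16493694 to 20352346 in the whole spleens. Levels are given as CPM, a gene's counts relative to the scaled library total, and differences as log2 values, macrophage preparation minus whole spleen. Each has a standard error (SE) and the p adjusted over all 16096 genes tested. The SE was worked back from the edgeR test, as the size of the difference divided by the square root of its F statistic. It is thus approximate, above all for genes near 0 in one group. Spleen air replicate 1 stood apart from the other spleens: mitochondrially encoded genes took 6.87% of its counts against 2.72 to 4.90% in the other spleens, and hemoglobin genes 0.314% against 0.0351 to 0.0706%. Spleen air replicates 3 and 4 held 576 and 887 counts of the liver transcript Alb, against 8 and 14 in replicates 1 and 2 and at most 1 in any macrophage preparation. Macrophage air replicate 4 had 3.43% of its counts in immunoglobulin genes against 0.802 to 1.42% in the other preparations. Calls of named genes that were lost or gained without these libraries are given beside the results.

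Of the genes tested, 5271 (32.7%) were higher in the macrophage preparations and 5529 (34.4%) were lower at an adjusted p under 0.05. At least 4-fold differences were found for 1579 genes (9.81%) in the higher and 1443 (8.96%) in the lower direction. With the levels scaled by the upper quartile in place of the trimmed mean, 37.6% of the calls were higher in place of 48.8%, and the median of all genes moved by -0.24. The groups did not overlap in 29.8% of the genes with the macrophage preparations on top and in 29.3% with the spleens on top. Counts of list members below are read against these shares. The markers and lists were chosen with earlier results of these data known, so the counts describe the groups and are not an independent check. In bulk RNA, fewer cells of a type and less RNA per cell cannot be told apart.

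The 3 macrophage markers chosen to check the labels were higher in every macrophage preparation than in any spleen. Vcam1, which encodes VCAM-1, a ligand of integrins (chr3:116109949-116129688 in mm10, minus strand), had 4881, 6023, 5869.7, 5218 and 6681 CPM in macrophage air replicates 1 to 5 and 189, 109, 102 and 100.4 CPM in spleen air replicates 1 to 4. The spleens lay far below the preparations, and spleen replicate 1 was the highest of them. The difference was 5.52 ± 0.25 (SE, adjusted p = 1.08e-08). Slc40a1, which encodes ferroportin (chr1:45908068-45926523, minus strand), had 2902, 3487, 2289, 2583 and 3931 CPM in the preparations and 69.1, 25.6, 31.9 and 26.3 CPM in the spleens, a difference of 6.31 ± 0.37 (SE, adjusted p = 6.71e-08). Spic, the gene of Spi-C (chr10:88674772-88685015, minus strand), had 555, 667, 589, 542 and 676 CPM and 54.2, 25.98, 26.98 and 30.04 CPM in the same order, a difference of 4.15 ± 0.23 (SE, adjusted p = 4.48e-08). For these genes too, spleen replicate 1 was the highest of the spleens and still lay below every preparation.

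Both lymphocyte markers moved the other way, and by different amounts. Cd3e, a chain of the T cell receptor complex (chr9:44998740-45009627, minus strand), had 6.32, 7.36, 5.24, 7.08 and 4.54 CPM in the preparations and 86.8, 105, 94.8 and 92.2 CPM in the spleens, and it fell by 3.96 ± 0.15 on the log2 scale (SE, adjusted p = 3.35e-09). Cd79a, a signalling chain of the B cell receptor (chr7:24897381-24902197, plus strand), had 442, 425, 389.9, 574 and 330.4 CPM and 1072, 1304, 1177 and 1642 CPM, and it fell by 1.59 ± 0.17 (SE, adjusted p = 7.37e-06). No preparation reached the level of any spleen for either gene, and B cell transcripts were still plentiful in the preparations. The plot of marker and other genes by library shows these values.

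**Figure D1:**
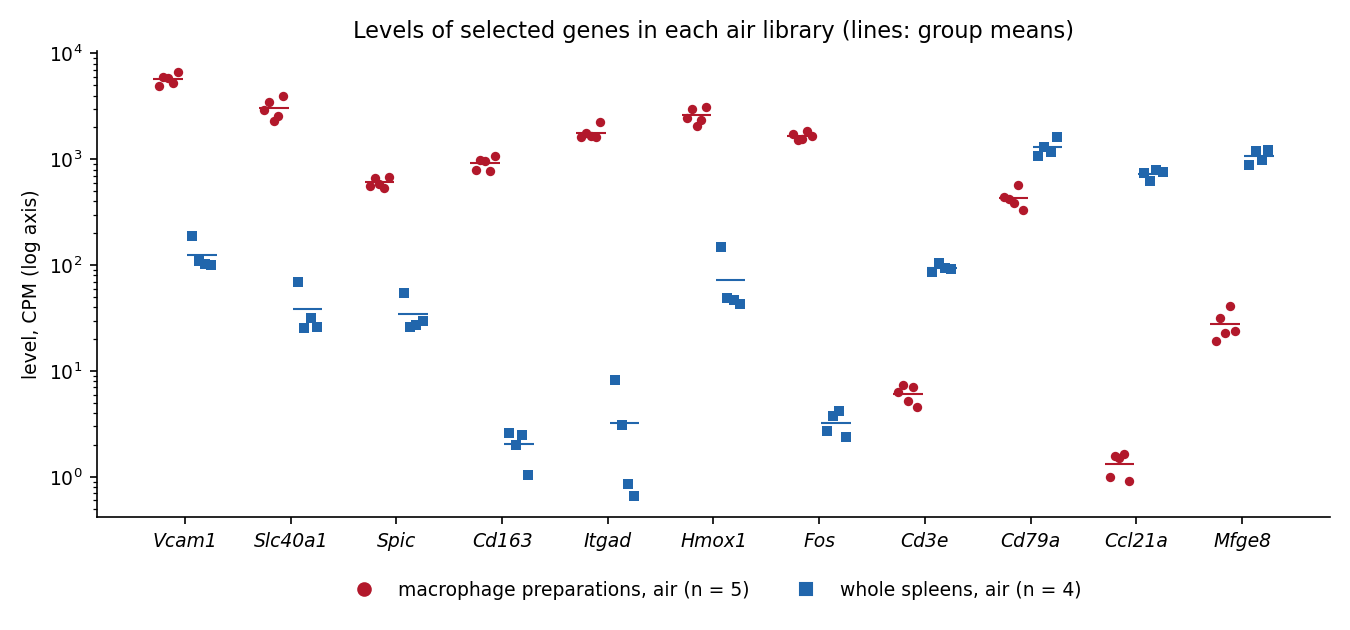
Levels in CPM on a log axis of 11 genes in each of the 5 macrophage preparations (circles) and 4 whole spleens (squares) from air-exposed mice, replicates in order from left to right and lines at the group means. The groups do not overlap for any of these genes, and spleen replicate 1 is the highest spleen for Vcam1, Slc40a1, Spic, Cd163, Itgad and Hmox1.

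All 18 genes of the red pulp macrophage list, which was chosen with earlier results of these data known, were tested. All 18 were at least 4-fold higher in the macrophage preparations, against 9.81% of all genes. Their median difference was 5.56, against -0.02 over all genes, and their summed level was 24537 to 33969 CPM in the preparations and 566 to 1038 CPM in the spleens. The largest difference of the list was that of Itgad, the integrin alpha-D chain that pairs with the beta-2 chain and binds VCAM-1 (chr7:128154376-128223816, plus strand). Itgad had 1616, 1779.7, 1657, 1639.9 and 2253 CPM in the preparations and 8.24, 3.07, 0.858 and 0.659 CPM in the spleens, a difference of 9.16 ± 0.68 (SE, adjusted p = 4.19e-07), which was 10.17 without spleen replicate 1. Spleens 3 and 4 were the lowest for this gene. Cd163, the scavenger receptor for hemoglobin bound to haptoglobin, had 801, 984, 972, 779 and 1086 CPM in the preparations and 2.60, 2.01, 2.48 and 1.04 CPM in the spleens, a difference of 8.82 ± 0.27 (SE, adjusted p = 1.15e-09). Adgre1, the gene of F4/80, had 983 ± 165 CPM (SD, n = 5) in the preparations and 9.02 ± 3.84 CPM (SD, n = 4) in the spleens, a difference of 6.77 ± 0.31 (SE, adjusted p = 1.10e-08).

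Other genes of the red pulp macrophage list differed by unequal amounts. Cd5l, a scavenger receptor family protein that protects macrophages from cell death, had 793 ± 189 CPM (SD, n = 5) in the preparations and 4.66 ± 3.61 CPM (SD, n = 4) in the spleens, a difference of 7.43 ± 0.48 (SE, adjusted p = 1.39e-07), or 8.09 without spleen replicate 1. Fcna, a ficolin of the lectin complement pathway, differed by 6.34 ± 0.33 (SE, adjusted p = 2.70e-08), and Treml4, a receptor that binds dead cells, by 6.24 ± 0.30 (SE, adjusted p = 1.61e-08). The 3 chains of complement C1q showed the smallest differences of the list together with Spic and Hpgd: C1qa differed by 3.86 ± 0.13 (SE, adjusted p = 2.05e-09), C1qb by 4.60 ± 0.16 (SE, adjusted p = 2.46e-09) and C1qc by 4.46 ± 0.14 (SE, adjusted p = 1.22e-09). Hpgd, which inactivates prostaglandins, had 523 ± 72.6 CPM (SD, n = 5) in the preparations and 27.3 ± 14.2 CPM (SD, n = 4) in the spleens. Trf, the plasma iron carrier transferrin, differed by 4.84 ± 0.24 (SE, adjusted p = 1.76e-08). Vsig4, a complement receptor typical of liver macrophages, was at 3.64, 4.38, 4.60, 2.19 and 3.79 CPM in the preparations and had 1 count in total over the 4 spleens. The receptor kinases of the list are described with the engulfment genes and Hmox1 with the iron genes. The strip plot of list members places this list at the far end of the higher side.

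**Figure D2:**
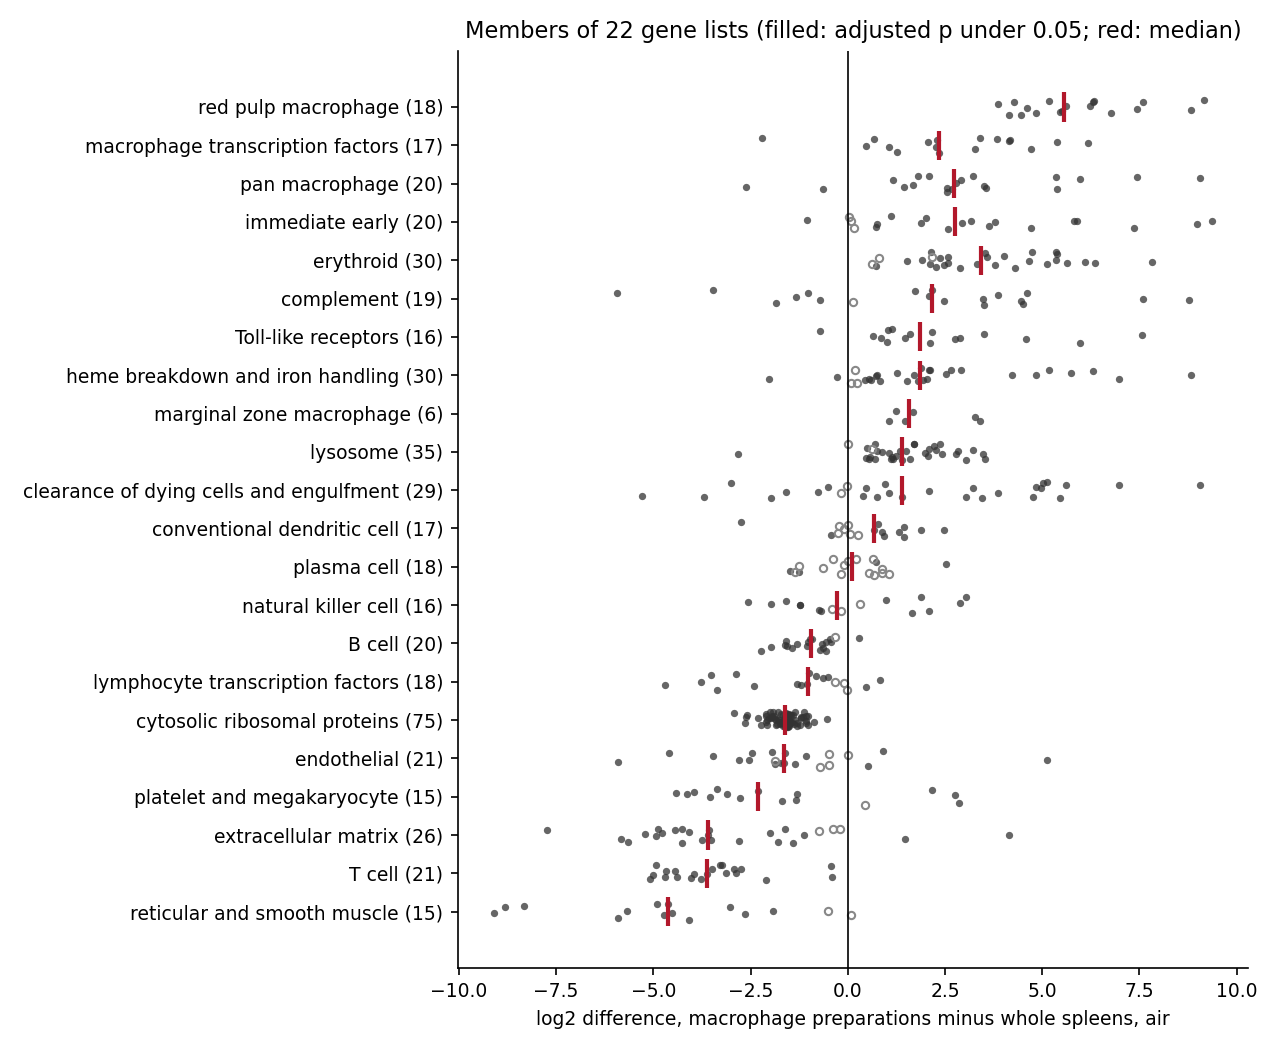
Log2 difference, macrophage preparations minus whole spleens in air, of every tested member of 22 gene lists, with the number tested in brackets. Filled points passed an adjusted p under 0.05, open points did not, and the red bar is the list median, from 5.56 for red pulp macrophage genes to -4.63 for reticular and smooth muscle genes.

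Promoters are shown for 4 red pulp macrophage genes that were at least 4-fold higher, because Spi-C and its relative PU.1 bind a purine-rich element with the core GAGGAA. RefSeq promoters (GRCm38.p6) were matched for 11 of the 18 genes of the list. The sequences are the 250 bases before the annotated start, 5′ to 3′ on the gene's strand, in lower case, with each match to GAGGAA or its reverse complement TTCCTC in capitals. They lie at chr4:136886201-136886450 (minus strand) for C1qb, chr7:25788734-25788983 (minus strand) for Axl, chr3:87357631-87357880 (plus strand) for Cd5l and chr10:88683024-88683273 (minus strand) for Spic.
C1qb: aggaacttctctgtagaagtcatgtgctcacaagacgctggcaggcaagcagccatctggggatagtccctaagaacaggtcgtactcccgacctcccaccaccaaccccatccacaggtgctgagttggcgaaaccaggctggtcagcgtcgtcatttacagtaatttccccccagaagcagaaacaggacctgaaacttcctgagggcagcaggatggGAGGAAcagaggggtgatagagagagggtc
Axl: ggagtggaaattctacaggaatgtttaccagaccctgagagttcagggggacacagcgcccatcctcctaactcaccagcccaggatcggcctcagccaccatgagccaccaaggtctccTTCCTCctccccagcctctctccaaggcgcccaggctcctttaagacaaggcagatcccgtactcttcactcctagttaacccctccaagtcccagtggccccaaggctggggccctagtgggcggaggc
Cd5l: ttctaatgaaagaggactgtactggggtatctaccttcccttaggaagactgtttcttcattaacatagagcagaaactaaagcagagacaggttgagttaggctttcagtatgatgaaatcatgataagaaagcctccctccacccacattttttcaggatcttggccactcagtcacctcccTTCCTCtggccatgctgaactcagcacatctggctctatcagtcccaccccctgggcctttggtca
Spic: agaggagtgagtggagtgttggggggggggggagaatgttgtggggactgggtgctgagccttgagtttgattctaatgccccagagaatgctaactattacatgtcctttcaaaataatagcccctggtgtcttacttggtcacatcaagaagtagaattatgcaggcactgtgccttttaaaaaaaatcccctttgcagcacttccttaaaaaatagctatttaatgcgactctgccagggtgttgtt
C1qb, Axl and Cd5l each held 1 match, 30, 130 and 66 bases before the start, and the Spic window held none. That Spic window lies inside the gene span given above for Spic. It precedes a RefSeq start within the gene, and the bases before the outermost start of the span were not searched. Over the list, 8 of the 11 promoters held the core (72.7%), as did 23.3% of all 32851 promoters in the table, 26.3% of those of genes at least 4-fold higher and 27.8% of those of genes at least 4-fold lower. The T cell list, whose genes were lower in the preparations, held it in 11 of 20 promoters (55.0%). A match is a string of letters and not a site shown to be bound, and no test was made of these shares. The AP-1 core TGANTCA, searched on both strands, was in none of the 11 red pulp list promoters. It was likewise in 0 of 20 promoters of the T cell list and 0 of 13 of the reticular and smooth muscle list. The share was 6.75% of all promoters and 4.63% of those of tested genes. At shares this low, its absence from 11 promoters says little.

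Of the 17 transcription factors listed for macrophages, 16 were higher and 1 was lower, with a median difference of 2.36. Pparg, the nuclear receptor of fatty acid handling, had 80.1 ± 9.90 CPM (SD, n = 5) in the preparations and 1.09 ± 0.353 CPM (SD, n = 4) in the spleens, the largest difference of the list at 6.17 ± 0.21 (SE, adjusted p = 1.96e-09). Maf, a large Maf factor that restrains macrophage proliferation, differed by 4.18 ± 0.16 (SE, adjusted p = 3.67e-09). Klf4, which is also an immediate early gene, differed by 4.71, and Cebpb, Tfec, Nr1h3, Zeb2, Cebpa and Mitf by 3.83, 3.39, 3.28, 2.36, 2.30 and 2.26. Spi1, the gene of PU.1, which B cells and granulocytes also express, had 281 ± 28.4 CPM (SD, n = 5) in the preparations and 66.6 ± 37.2 CPM (SD, n = 4) in the spleens, a difference of 2.07 ± 0.40 (SE, adjusted p = 6.90e-04). Bach1, the repressor that heme inactivates, differed by 1.28, Runx1 by 1.07, Irf8 by 0.69 and Irf5 by 0.48. The call of Irf5 was lost with the upper quartile or total counts as the scaling, at adjusted p of 0.094 and 0.060. Id3, an inhibitor of basic helix-loop-helix factors that lymphocytes also express, was the 1 member that fell, with 13.8 ± 3.89 CPM (SD, n = 5) in the preparations and 63.7 ± 13.8 CPM (SD, n = 4) in the spleens.

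Iron and heme genes were higher along most of the route from uptake to export. Of 30 tested members of the 32 listed, 25 were higher and 2 lower, with a median difference of 1.85, and 13 were at least 4-fold higher. At the uptake step, Lrp1, the receptor for heme bound to hemopexin and for many other ligands, had 2451 ± 294 CPM (SD, n = 5) in the preparations and 19.6 ± 2.33 CPM (SD, n = 4) in the spleens, a difference of 6.97 ± 0.17 (SE, adjusted p = 4.55e-10). Slc48a1, which carries heme out of the phagolysosome, differed by 2.92 ± 0.15 (SE, adjusted p = 2.86e-08). Slc11a1, the phagosomal metal transporter NRAMP1, differed by 5.74 ± 0.23 (SE, adjusted p = 4.69e-09), and Slc11a2, the related DMT1, by only 0.44 ± 0.10 (SE, adjusted p = 0.0023), a call that was lost with the upper quartile as the scaling (adjusted p = 0.091).

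At the degradation step, Hmox1, the inducible heme oxygenase (chr8:75093621-75100589, plus strand), had 2439.7, 3015, 2061, 2342 and 3104 CPM in the preparations and 148, 49.5, 46.5 and 42.7 CPM in the spleens. Spleen replicate 1 was again the highest of the spleens, and no spleen came near a preparation. The difference of Hmox1 was 5.18 ± 0.42 (SE, adjusted p = 8.11e-07), or 5.81 without spleen replicate 1, and that of the constitutive Hmox2 was 0.55 ± 0.11 (SE, adjusted p = 0.0010). The biliverdin reductases Blvra and Blvrb, which act next, differed by 2.04 and 2.12. At the storage step, Ftl1 and Fth1, the ferritin light and heavy chains, differed by 2.08 ± 0.14 (SE, adjusted p = 1.56e-07) and 1.53 ± 0.14 (SE, adjusted p = 1.93e-06), and ferritin genes took 0.768 to 0.971% of the counts of the preparations and 0.243 to 0.274% of those of the spleens. Ncoa4, the receptor that delivers ferritin for degradation, differed by 2.52 ± 0.18 (SE, adjusted p = 3.54e-07).

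Genes of iron control and exchange were mixed in size and direction. Hfe, which regulates hepcidin signalling, differed by 4.24 ± 0.27 (SE, adjusted p = 1.25e-07), and Slc39a8, a zinc and iron importer, by 2.66 ± 0.33 (SE, adjusted p = 2.25e-05). The iron reductase Steap3, the haptoglobin gene Hp and the folate and heme transporter Slc46a1 differed by 1.92, 1.89 and 1.81, that of Hp being 2.68 without spleen replicate 2. Tfrc, the transferrin receptor that erythroblasts carry at high level, differed by 0.73 ± 0.29 (SE, adjusted p = 0.044). Its call was lost when spleen replicate 2, 3 or 4 or macrophage replicate 2 or 5 was left out, at adjusted p from 0.079 to 0.11, and with spleens 3 and 4 both left out, at 0.16. It was also lost with total counts or the upper quartile as the scaling, limma-voom, a robust fit, a joint fit of all libraries, the replicate block and an offset for exon length, at adjusted p from 0.058 to 0.18. The heme exporter Flvcr1 differed by 0.82 ± 0.12 (SE, adjusted p = 1.08e-04). The iron sensors went in opposite directions: Aco1 (IRP1) had 99.99 ± 8.36 CPM (SD, n = 5) in the preparations and 30.5 ± 4.33 CPM (SD, n = 4) in the spleens, whereas Ireb2 (IRP2) had 87.7 ± 2.38 CPM (SD, n = 5) and 106 ± 11.1 CPM (SD, n = 4), a difference of -0.28 ± 0.09 (SE, adjusted p = 0.015), which did not pass without spleen replicate 3 or with spleens 3 and 4 both left out (adjusted p = 0.052 in each), nor without the filter on low counts (0.15), in the joint fit (0.090) or with the replicate block (0.065). Cp, the ferroxidase ceruloplasmin, was the other member that fell, with 17.1 ± 6.78 CPM (SD, n = 5) in the preparations and 69.5 ± 23.4 CPM (SD, n = 4) in the spleens, a difference of -2.02 ± 0.28 (SE, adjusted p = 5.77e-05). The iron chaperone Pcbp1 differed by 0.59 and the stress regulator Nfe2l2 by 0.74. Pcbp2, Keap1 and Slc39a14 did not pass the test, with differences of 0.19, 0.23 and 0.09. Pcbp2 and Keap1 passed with spleens 3 and 4 both left out (adjusted p = 0.032 and 0.036) and under some other settings. Among these, Pcbp2 passed without spleen replicate 1, 2 or 3 (adjusted p = 0.040, 0.042 and 0.040). Keap1 passed without spleen replicate 4 (adjusted p = 0.046).

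**Figure D3:**
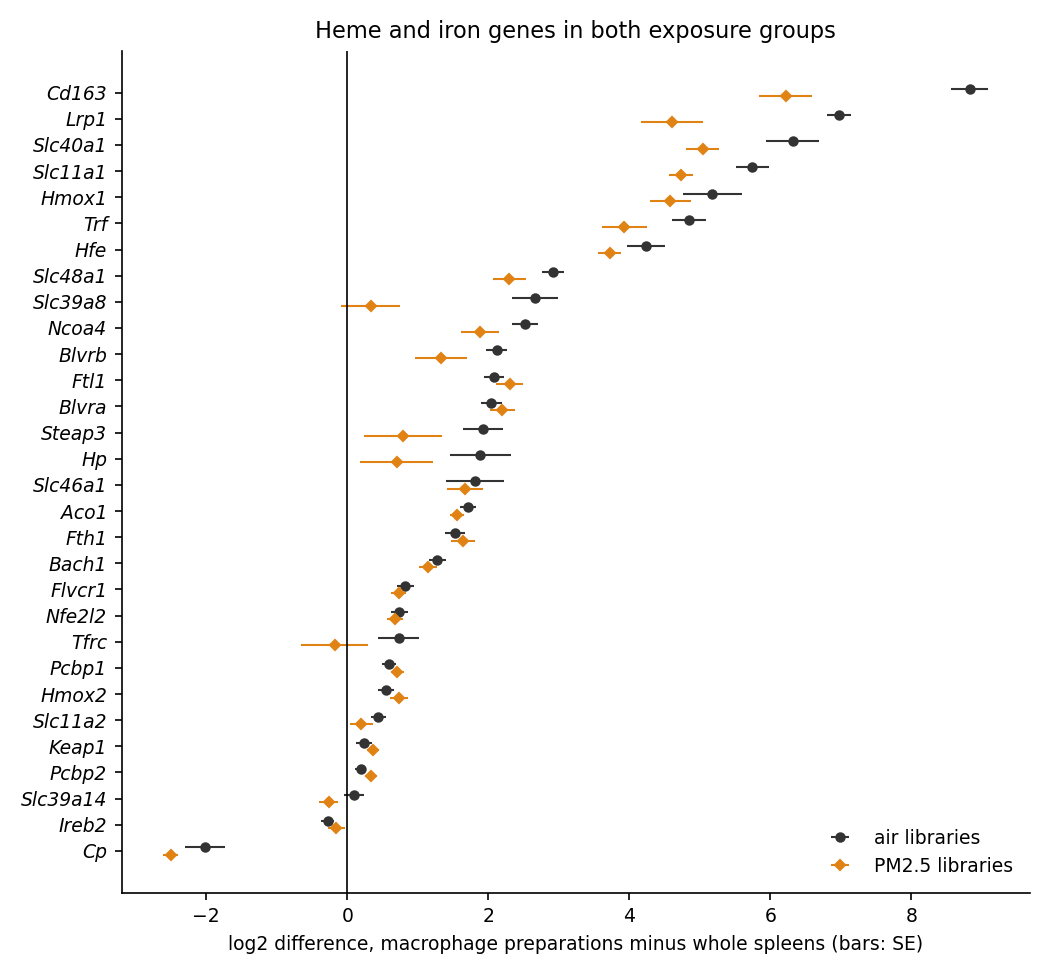
Log2 difference with its SE, macrophage preparations minus whole spleens, of the 30 tested genes of heme and iron handling, in air libraries (circles) and in PM2.5 libraries (diamonds). In air, 25 genes lie above 0 past the threshold, and Cp lies at -2.02, the lowest.

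Of the 12 targets of the oxidative stress factor NRF2, 9 were higher and 2 lower, with a median of 0.68. Gclm, of glutathione synthesis, differed by 2.41 ± 0.22 (SE, adjusted p = 2.46e-06), and G6pdx, Txnrd1 and Gsr, which supply or use reducing power, by 1.97, 1.94 and 1.88. The 2 that fell were Slc7a11, the cystine importer, at 4.31 against 56.5 CPM, and Me1, malic enzyme, at 0.689 against 7.11 CPM, with a difference of -3.37, or -2.77 without spleen replicate 2.

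Most receptors for dying cells were higher, while the bridging proteins Mfge8 and Gas6 were lower. Of 29 engulfment genes, 20 were higher and 7 lower, with a median of 1.39. The receptor kinase Axl had 2909 ± 446 CPM (SD, n = 5) in the preparations and 59.6 ± 16.9 CPM (SD, n = 4) in the spleens, a difference of 5.61 ± 0.23 (SE, adjusted p = 5.66e-09), and its relative Mertk had 601 ± 99.9 CPM (SD, n = 5) and 13.8 ± 6.08 CPM (SD, n = 4), a difference of 5.45 ± 0.30 (SE, adjusted p = 3.59e-08). The mannose receptor Mrc1 differed by 9.05 ± 0.36 (SE, adjusted p = 4.47e-09), Cd300a, an inhibitory receptor for membrane lipids, by 5.03 ± 0.19 (SE, adjusted p = 3.67e-09), and the integrin chain Itgb5 by 4.77 ± 0.14 (SE, adjusted p = 9.13e-10). Mfge8, which links phosphatidylserine on dying cells to integrins, had 19.2, 31.6, 22.7, 40.9 and 23.7 CPM in the preparations and 885, 1202, 988 and 1236 CPM in the spleens, so that the spleens were higher in every library, and it fell by 5.29 ± 0.23 (SE, adjusted p = 8.93e-09). Gas6, the ligand of Axl and Mertk, fell by 0.76 ± 0.19 (SE, adjusted p = 0.0040). Itgb3 and the scavenger receptor Colec12 were also lower, by differences of -1.59 and -3.01.

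Complement genes divided into a higher and a lower group. Of 19 tested, 12 were higher (63.2%, against 32.7% of all genes) and 6 lower (31.6%, near the 34.4% of all genes). Besides the C1q chains, the higher group held the complement receptor subunits Itgax, with a difference of 2.48 ± 0.21 (SE, adjusted p = 9.81e-07), and Itgb2, with 2.15 ± 0.10 (SE, adjusted p = 1.50e-08). The lower group held Serping1, the C1 inhibitor, at 2.08 against 126 CPM, C4b at 21.03 against 233 CPM and Cfb at 9.73 against 24.4 CPM.

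Among 11 Fc receptors and related genes, 6 were higher (54.5%, against 32.7% of all genes) and 4 lower (36.4%, near the 34.4% of all genes). The 3 activating receptors for immunoglobulin G were all higher: Fcgr1 differed by 7.43 ± 0.40 (SE, adjusted p = 3.42e-08), Fcgr4 by 6.32 ± 0.45 (SE, adjusted p = 3.17e-07) and Fcgr3 by 4.64 ± 0.24 (SE, adjusted p = 2.11e-08). Without spleen replicate 1 the difference of Fcgr4 was 7.13. Fcgrt, the receptor that recycles immunoglobulin G, differed by 2.67 ± 0.13 (SE, adjusted p = 1.50e-08). The 4 lower members, Fcer2a, Fcrla, Fcrl1 and Fcmr, are receptors or relatives that B cells express, with differences of -1.45, -1.01, -0.69 and -0.64. That of Fcmr did not pass with spleens 3 and 4 both left out (adjusted p = 0.058) or with an offset for exon length in the fit (adjusted p = 0.17).

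Pattern recognition and lysosomal genes were mostly higher, and cholesterol synthesis genes were higher in none. Of 16 genes of Toll-like receptor signalling, 15 were higher and 1, Tlr1, was lower at -0.71. Tlr8, an endosomal RNA receptor, differed by 7.56 ± 0.45 (SE, adjusted p = 7.17e-08), Cd14, the endotoxin co-receptor, by 5.96 ± 0.32 (SE, adjusted p = 2.90e-08), Tlr13, a receptor for bacterial ribosomal RNA, by 4.60 ± 0.22 (SE, adjusted p = 1.38e-08), and Tlr7 by 2.88 ± 0.11 (SE, adjusted p = 3.38e-09). Of 35 tested lysosomal genes, 32 were higher and 1 was lower, with a median of 1.40. Acp2, lysosomal acid phosphatase, Man2b1, a mannosidase, Lgmn, legumain, and Npc1, of cholesterol export from the lysosome, differed by 3.49, 3.21, 3.04 and 2.21. Of 16 genes of cholesterol efflux and lipid handling, 13 were higher and 0 lower, among them the exporter Abcg1 at 2.55 and the lipid droplet protein Plin2 at 2.16. Of 22 genes of cholesterol synthesis, 0 were higher and 11 lower, among them Cyp51, Sc5d, Msmo1 and Hmgcs1 at -1.66, -1.29, -1.22 and -1.21.

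General macrophage genes were higher with 2 exceptions. Of 20 listed, 18 were higher and 2 lower, with a median of 2.74. Csf1r, the receptor for the macrophage growth factor, had 4078, 4915, 4947, 3799 and 5441 CPM in the preparations and 124, 119, 87.9 and 119 CPM in the spleens, a difference of 5.37 ± 0.19 (SE, adjusted p = 2.18e-09). The exceptions were Lyz2, lysozyme M, which neutrophils and monocytes also carry, at 1149 ± 144 CPM (SD, n = 5) against 1789.8 ± 570.5 CPM (SD, n = 4), and the tetraspanin Cd63, at 22.3 ± 2.67 CPM (SD, n = 5) against 138 ± 38.2 CPM (SD, n = 4). With the exon length offset the difference of Lyz2 was -0.17 and did not pass (adjusted p = 0.42).

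Genes of the marginal zone, the border between the pulps, showed smaller differences than those of the red pulp macrophage list, whose smallest difference was 3.86. All 6 were tested, and all 6 were higher, 2 of them at least 4-fold. Siglec1, the sialoadhesin of metallophilic macrophages, had 114, 227, 151, 109 and 178 CPM in the preparations and 17.4, 15.6, 8.44 and 17.8 CPM in the spleens, a difference of 3.40 ± 0.28 (SE, adjusted p = 1.01e-06). Nr1h3, the oxysterol receptor on which marginal zone macrophages depend, differed by 3.28 ± 0.19 (SE, adjusted p = 6.07e-08). Marco, a scavenger receptor of marginal zone macrophages, had 74.6, 167, 103, 70.3 and 92.6 CPM in the preparations and 70.1, 28.7, 19.2 and 54.03 CPM in the spleens. The lowest preparations barely exceeded the highest spleen for Marco, and its difference was 1.24 ± 0.37 (SE, adjusted p = 0.010). With spleens 3 and 4 both left out it did not pass (adjusted p = 0.053). Timd4, a phosphatidylserine receptor, Cd209b and Cd209c differed by 1.07, 1.48 and 1.69, the C-type lectin Cd209c being at 2.64 against 0.816 CPM.

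Monocyte and dendritic cell genes were mixed. Of 14 monocyte genes, 9 were higher (64.3%, against 32.7% of all genes) and 4 lower (28.6%, near the 34.4% of all genes). Ace, an enzyme of the angiotensin system, had 145 ± 35.3 CPM (SD, n = 5) in the preparations and 4.49 ± 2.38 CPM (SD, n = 4) in the spleens, and the chemokine receptor Ccr2 differed by 1.55 ± 0.16 (SE, adjusted p = 5.27e-06). Ly6c2, the marker of classical monocytes that some T cells also carry, fell, at 20.4 against 87.6 CPM, as did Spn at 61.3 against 124 CPM. Of 17 conventional dendritic cell genes, 9 were higher and 2 lower, with a median of 0.69. Wdfy4, needed for cross-presentation, differed by 1.87 ± 0.12 (SE, adjusted p = 1.41e-07) and Itgax, the gene of CD11c, by 2.48. The 2 that fell, Cd8a and Ccr7, are carried by T cells too, at -2.74 and -0.44. That of Ccr7 did not pass with spleens 3 and 4 both left out (adjusted p = 0.11) or with the exon length offset (adjusted p = 0.35). Of 8 plasmacytoid dendritic cell genes, 1 was higher and 6 lower, Siglech at 6.63 against 34.3 CPM and Ccr9 at 3.88 against 12.3 CPM. The 1 higher gene, Cox6a2 (chr7:128205435-128206387, minus strand), lies within the span of Itgad on the opposite strand, and the counting is not stated to use strand, so its reads and those of Itgad cannot be told apart.

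T cell genes fell as a whole. All 21 were tested and all 21 were lower, 19 of them at least 4-fold, with a median of -3.61 and no overlap between the groups in any of them. Cd3g, a chain of the receptor complex, had 4.15 ± 0.669 CPM (SD, n = 5) in the preparations and 135 ± 33.3 CPM (SD, n = 4) in the spleens. The receptor constant region Trac had 6.13 against 157 CPM, and the factors Tcf7, Lef1 and Bcl11b had differences of -2.88, -4.70 and -3.76. The summed level of the list was 343 to 469 CPM in the preparations and 2504 to 3457 CPM in the spleens, and 0 of the 21 genes was at 0 in either group.

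B cell genes fell less far. Of 20 tested, 18 were lower and 1 higher, with a median of -0.95, and 1 was at least 4-fold lower, against 8.96% of all genes. Vpreb3, expressed in immature B cells, was that gene, at 9.04 against 42.2 CPM. Ighd, the constant region of the receptor of naive B cells, had 336 against 1325 CPM, Cd72 93.6 against 288 CPM and Cd79b 342 against 1014 CPM. Bank1, a scaffold of B cell receptor signalling, was the 1 higher member, at 0.29 ± 0.11 (SE, adjusted p = 0.041), and its call was lost when any 1 library other than spleen replicates 1 and 2 was left out, at adjusted p from 0.051 to 0.12. It was lost as well with spleens 3 and 4 both left out, the replicate block, total counts, the exon length offset and the upper quartile, at adjusted p from 0.069 to 0.71. The summed level was 4149 to 6597 CPM in the preparations and 10119.5 to 11380.3 CPM in the spleens. Of 18 lymphocyte transcription factors, 13 were lower and 2, Klf2 and Ikzf3, higher. The call of Ikzf3, at 0.48, was lost with total counts, the upper quartile, the exon length offset and spleens 3 and 4 both left out, at adjusted p from 0.13 to 0.23.

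Plasma cell genes differed little in the mean and varied between libraries. Of 18 tested, 2 were higher and 2 lower. Ighm, the immunoglobulin M constant region (chr12:113418558-113422730, minus strand), had 4293, 7339.9, 3924, 19049 and 4492 CPM in the preparations and 4007, 5055, 2711 and 3256 CPM in the spleens. Macrophage replicate 4 was by far the highest library, the other preparations overlapped the spleens, and the difference of 1.06 ± 0.45 (SE, adjusted p = 0.057) did not pass. It passed when spleen replicate 2 or macrophage replicate 1, 3 or 5 was left out, at adjusted p from 0.032 to 0.048, and under 4 other settings, at adjusted p from 0.020 to 0.048. Without macrophage replicate 4 it was 0.42 (adjusted p = 0.16), and with spleens 3 and 4 both left out 0.81 (adjusted p = 0.30). Jchain, which joins immunoglobulin polymers, was likewise highest in macrophage replicate 4, with 374, 712, 377, 1676 and 455 CPM and 445, 581, 202 and 327 CPM and a difference of 0.89 ± 0.46 (SE, adjusted p = 0.11). Without macrophage replicate 4 the list's median moved from 0.11 to -0.21, with 2 members higher and 5 lower. Prdm1, which encodes the plasma cell factor Blimp-1 and is also expressed in macrophages, and Xbp1 were the higher members, at 2.52 and 0.74.

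Natural killer cell genes went both ways, at shares not far from those of all genes. Of 16, 6 were higher (37.5%, against 32.7%) and 7 lower (43.8%, against 34.4%). The receptor Ncr1 was at 5.77 against 0.682 CPM and Klrk1, the receptor NKG2D, at 32.9 against 16.7 CPM, whereas Nkg7, Ccl5, Eomes and Il2rb, which T cells also express, fell to differences of -2.56, -1.59, -1.98 and -1.23.

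Stromal genes were the lowest of all lists by their median. Of 15 genes of reticular and smooth muscle cells, 13 were lower, 12 of them at least 4-fold, and 0 higher, with a median of -4.63. Ccl21a, a chemokine of the T cell zone stroma (chr4:42772860-42773993, minus strand), had 0.996, 1.58, 1.51, 1.65 and 0.920 CPM in the preparations and 747, 629, 795 and 757 CPM in the spleens, and it fell by 9.10 ± 0.19 (SE, adjusted p = 2.29e-10). Its near-identical copies can share reads with it, so the value may belong to the family. Ccl19, the other ligand of the same receptor, had 0.451 against 144 CPM. Cxcl13, the chemokine of B cell follicles, had 4.58 against 232 CPM, and Des, desmin of muscle cells, 2.59 against 59.7 CPM.

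Extracellular matrix genes followed, with 21 of 26 tested members lower, 17 of them at least 4-fold, and 2 higher. Dcn, decorin, had 0.335 against 68.6 CPM, Col1a2 2.61 against 96.8 CPM, Bgn 10.6 against 178 CPM and Sparc 9.32 against 126 CPM. Against this direction, Col14a1, a collagen that sits on the surface of fibrils, had 243, 279.7, 295, 220.5 and 384 CPM in the preparations and 16.7, 17.6, 13.8 and 16.1 CPM in the spleens, a difference of 4.14 ± 0.18 (SE, adjusted p = 7.69e-09). Fn1, fibronectin, differed by 1.47 ± 0.28 (SE, adjusted p = 6.22e-04).

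Of 21 endothelial genes, 13 were lower and 3 higher. Madcam1, the addressin of marginal sinus lining cells, had 0.307, 1.28, 0.467, 1.20 and 0.115 CPM in the preparations and 39.7, 43.04, 30.6 and 45.9 CPM in the spleens, a difference of -5.92 ± 0.42 (SE, adjusted p = 2.87e-07). Cdh5, Kdr and Ramp2, of endothelium in general, had differences of -1.61, -1.95 and -2.53. Stab2, a scavenger receptor of sinusoidal endothelium, went the other way, with 360.3, 411, 419, 350.5 and 492 CPM in the preparations and 15.4, 11.9, 7.91 and 11.7 CPM in the spleens, a difference of 5.12 ± 0.20 (SE, adjusted p = 4.56e-09). Pecam1, also on macrophages and platelets, and Esam were higher by smaller amounts, at 0.91 and 0.52, the call of Esam being lost with the upper quartile (adjusted p = 0.063). Of 15 tested platelet and megakaryocyte genes, 11 were lower and 3 higher. Pf4 and Ppbp, chemokines of platelet granules, had 1.41 against 24.1 CPM and 1.92 against 40.9 CPM, a difference for Ppbp of -4.42, or -3.67 without spleen replicate 1. The 3 higher members were Vwf and Clec1b, at 81.8 against 11.3 CPM and 77.3 against 17.4 CPM, and Gfi1b, which erythroid cells share, at 2.77. The call of Gfi1b was lost without spleen replicate 2 or 3 or macrophage replicate 5, at adjusted p from 0.054 to 0.060, and with spleens 3 and 4 both left out, at 0.13, and its difference was 4.89 without spleen replicate 1.

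Some granulocyte genes were higher in the preparations. Of 14 tested neutrophil genes, 5 were higher (35.7%, near the 32.7% of all genes) and 0 lower (against 34.4%). Without spleen replicate 1 these counts became 13 and 0. Retnlg, a neutrophil resistin-like protein, had 35.4, 17.3, 13.8, 10.97 and 21.8 CPM in the preparations and 0.930, 0.336, 0 and 0 CPM in the spleens, a difference of 6.04, or 7.35 without spleen replicate 1. Csf3r, the receptor of the neutrophil growth factor, differed by 4.34 ± 0.26 (SE, adjusted p = 6.71e-08). S100a8, an abundant neutrophil protein, had 5.94, 8.64, 5.85, 6.33 and 16.2 CPM in the preparations and 23.8, 0.815, 1.43 and 0.714 CPM in the spleens. Spleen replicate 1 was the highest library of all for S100a8, and the difference of 0.37 ± 0.89 (SE, adjusted p = 0.73) did not pass. Without that library it was 3.11 (adjusted p = 8.66e-05). Of 11 tested genes of eosinophils, basophils and mast cells, 6 were higher (54.5%) and 1 lower (9.09%). Ccr3, the eotaxin receptor of eosinophils (chr9:124021972-124031689, plus strand), had 317, 349, 351, 313 and 438 CPM in the preparations and 0.992, 0.527, 0 and 0.220 CPM in the spleens, a difference of 9.73 ± 0.45 (SE, adjusted p = 1.13e-08), or 10.44 without spleen replicate 1. Other eosinophil genes differed less or went the other way: Prg2, an eosinophil granule protein, had 17.9 against 2.58 CPM, and Il5ra, the receptor of the eosinophil growth factor, had 10.7 against 19.2 CPM.

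Erythroid genes were higher in the preparations, with a wide spread between libraries. Of 30 tested members, 27 were higher and 0 lower, 24 of them at least 4-fold. The groups did not overlap in 9 of the 30, near the share of all genes in this direction (29.8%). The level of the list, the mean of log2(CPM + 1), was 5.23, 6.28, 3.66, 5.93 and 6.85 in macrophage replicates 1 to 5 and 3.95, 2.29, 2.28 and 2.65 in spleen replicates 1 to 4. Macrophage replicate 3 lay below spleen replicate 1, and the other preparations lay above all spleens. Hba-a1, an adult alpha globin, had 1174, 2669, 1023, 2716 and 3143 CPM in the preparations and 1343, 128, 159 and 333 CPM in the spleens, a difference of 2.13 ± 0.67 (SE, adjusted p = 0.014), and Hbb-bs, a beta globin, had 1164, 2742, 1102, 2838 and 3164 CPM and 1418, 139, 202 and 268 CPM. Without spleen replicate 1 these differences were 3.38 and 3.45, from 2.13 and 2.12, and with spleens 3 and 4 both left out they did not pass (adjusted p = 0.13 for both). The copies of each globin gene share reads, so their split is uncertain. Epor, the erythropoietin receptor, had 41.7 ± 11.9 CPM (SD, n = 5) in the preparations and 1.21 ± 0.693 CPM (SD, n = 4) in the spleens. Ank1 and Sptb, of the erythrocyte membrane skeleton, had 63.8 against 0.800 CPM and 92.5 against 1.35 CPM, and Fech, the last enzyme of heme synthesis, 134 against 25.8 CPM. Without spleen replicate 1, 29 members were higher and the median moved from 3.42 to 4.45. With spleens 3 and 4 both left out, 16 were higher at a median of 2.96. With limma-voom in place of edgeR, 15 members were higher at a median of 3.41, and Ank1 did not pass (adjusted p = 0.056).

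**Figure D4:**
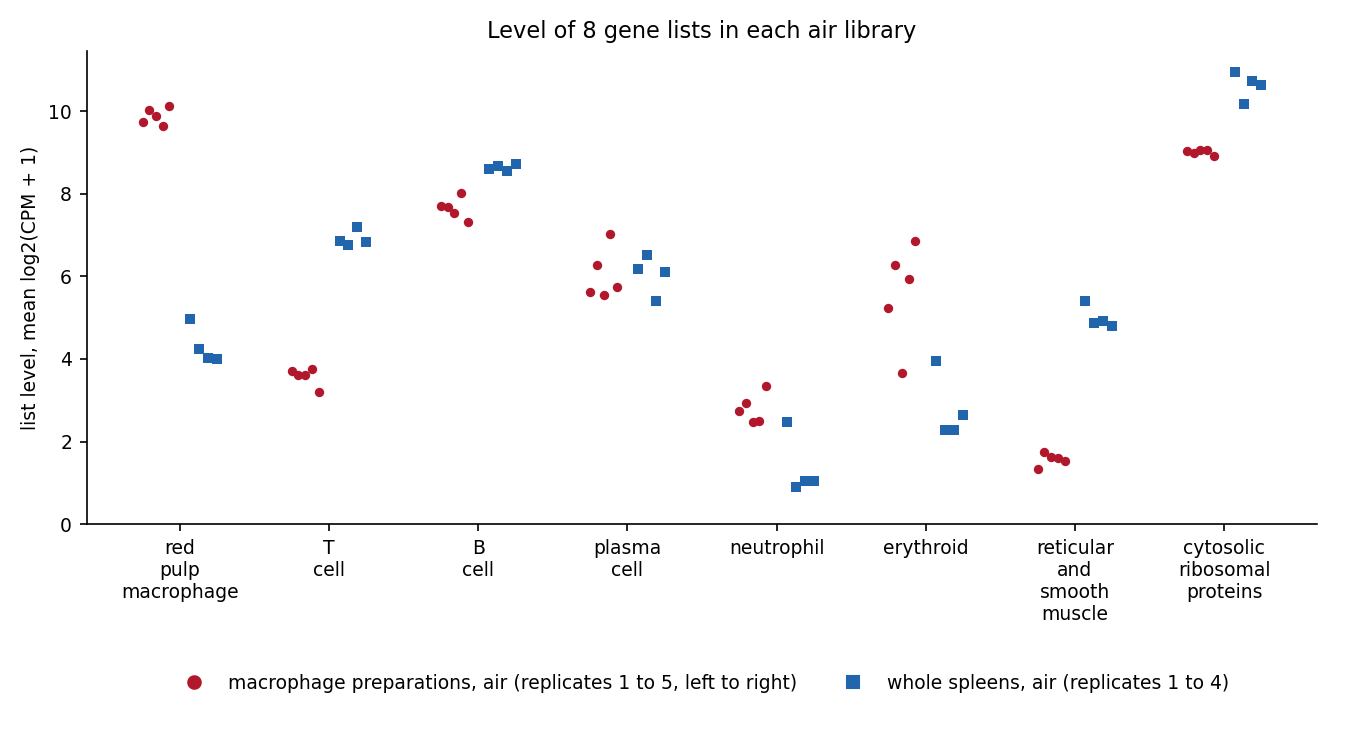
Level of 8 gene lists, the mean over members of log2(CPM + 1), in each macrophage preparation (circles) and whole spleen (squares) from air-exposed mice. The erythroid list spans 3.66 to 6.85 in the preparations and 2.28 to 3.95 in the spleens, and the red pulp macrophage list 9.64 to 10.12 and 3.99 to 4.97, with spleen replicate 1 the highest spleen for both lists.

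Immediate early genes, which are switched on within minutes of a stimulus, were among the largest differences. Of 20, 16 were higher, 12 of them at least 4-fold, and 1 was lower, with a median of 2.76. Fos (chr12:85473890-85477273, plus strand) had 1732, 1521, 1554, 1846 and 1660.5 CPM in the preparations and 2.73, 3.74, 4.19 and 2.36 CPM in the spleens, a difference of 8.98 ± 0.21 (SE, adjusted p = 4.55e-10). Fosb, its paralog (chr7:19302696-19310051, minus strand), had 1789.9, 1529.9, 1648, 1869.6 and 1582 CPM and 0.620, 2.83, 2.48 and 4.12 CPM, a difference of 9.37 ± 0.41 (SE, adjusted p = 7.90e-09). Jun, their partner, had 2037 ± 173 CPM (SD, n = 5) and 12.3 ± 2.83 CPM (SD, n = 4), and the phosphatase gene Dusp1 839 ± 73.4 CPM (SD, n = 5) and 14.1 ± 2.26 CPM (SD, n = 4). The lower member was Egr3, at 33.1 against 68.2 CPM. Isolation of the cells and their type differ together between the groups and cannot be told apart in these values.

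Heat shock genes did not move as a group. Of 12, 4 were higher (33.3%, near the 32.7% of all genes) and 3 lower (25.0%, against 34.4%). The median of 0.05 changed sign under other scalings, for example to -0.19 with the upper quartile. Hspa1a and Hspa1b, the near-identical inducible chaperones whose reads can be shared, differed by 5.09 ± 0.46 (SE, adjusted p = 1.93e-06) and 2.81 ± 0.69 (SE, adjusted p = 0.0034), while Hspe1, a mitochondrial chaperone, differed by -1.63 ± 0.15 (SE, adjusted p = 2.80e-06). Of 21 tested cytokines and chemokines, 11 were higher (52.4%) and 6 lower (28.6%, near the 34.4% of all genes). With the exon length offset 3 were lower. Il1b had 112 against 5.98 CPM and Il18 134 against 16.1 CPM, whereas Cxcl16 fell, at 23.5 against 46.5 CPM, and so did Csf1, the ligand of Csf1r, at 12.1 against 28.6 CPM. Of 19 interferon-stimulated genes, 11 were higher (57.9%) and 4 lower (21.1%), Rsad2 at 3.02 and Ifit1 at -1.10. Of 10 genes of MHC class II presentation, 2 were higher and 3 lower: Cd74, the invariant chain, and Ciita, the class II activator, differed by 0.69 and 1.02, and H2-Ob, H2-Oa and H2-DMb2, typical of B cells, were at -1.04, -0.93 and -0.58. The balance of the MHC class II list turned with the setting, to 1 higher and 5 lower with the upper quartile or total counts and to 5 higher and 2 lower with the exon length offset. The call of Cd74 was lost with the upper quartile and total counts (adjusted p = 0.090 and 0.073), and that of H2-DMb2 with the offset and with spleens 3 and 4 both left out (adjusted p = 0.20 and 0.083).

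Ribosomal protein genes were lower throughout. All 75 were tested and all 75 were lower, with a median of -1.61 and no overlap between the groups in any. They took 3.88 to 4.42% of the counts of the preparations and 11.2 to 16.2% of those of the spleens. Rpl38 had 128, 127, 136, 122 and 112 CPM in the preparations and 1301, 563, 972 and 949 CPM in the spleens, and Rps24, Rpl35a and Rps15 had differences of -2.64, -2.58 and -2.08. Exon length moved with the contrast: over 4 equal groups of genes from the shortest to the longest summed exons, the median difference was -0.38, -0.14, 0.04 and 0.25, and with an offset for exon length the ribosomal median was -1.34 with 74 genes lower. Of the 13 mitochondrially encoded genes, 9 were lower and 0 higher, at a median of -1.13. mt-Nd1, a subunit of complex I, had 2122, 2613, 2153, 2284 and 2424 CPM in the preparations and 8254, 2744, 5884 and 3437 CPM in the spleens. The median of these genes was -0.77 without spleen replicate 1 and -0.60 with the length offset, under which 5 were lower and mt-Nd1 did not pass (adjusted p = 0.053). Of 38 nuclear genes of the respiratory chain, 25 were lower and 3 higher, at a median of -0.56, and 1 to 5 were higher when single libraries were left out.

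Medians of the metabolic and cell cycle lists were small, at 0.06 for glycolytic, -0.30 for replication and 0.16 for mitotic genes. Of 18 glycolytic genes, 5 were higher (27.8%, near the 32.7% of all genes) and 5 lower (27.8%, against 34.4%). With the upper quartile 8 were lower. The hexokinases Hk3 and Hk2 differed by 4.39 ± 0.30 (SE, adjusted p = 2.01e-07) and 2.08 ± 0.16 (SE, adjusted p = 6.14e-07). Lactate dehydrogenase Ldha was at -0.95 ± 0.10 (SE, adjusted p = 7.05e-06). Of 23 replication genes, 2 were higher (8.70%) and 9 lower (39.1%, not far from the 34.4% of all genes). Of 24 mitotic genes, 4 were higher (16.7%) and 1 lower (4.17%), each below the share of all genes. When single libraries were left out, 1 to 7 mitotic genes were higher and 0 or 1 lower, and with the upper quartile or total counts 1 was higher and 2 lower. Kif23, a motor of cell division, differed by 0.96 ± 0.15 (SE, adjusted p = 1.25e-04). Of 22 integrins and adhesion genes, 14 were higher (63.6%, against 32.7% of all genes) and 7 lower (31.8%, near the 34.4% of all genes). Itga9, a partner of the beta-1 chain, had 474 ± 40.01 CPM (SD, n = 5) in the preparations and 10.5 ± 2.33 CPM (SD, n = 4) in the spleens, and Itga6, a chain of laminin receptors, had a difference of -1.82.

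The 10 largest differences in the higher direction among genes of at least 20 CPM were mostly outside the classical markers. Btnl6, a butyrophilin-like gene (chr17:34507804-34517352, minus strand), had 31.3, 27.7, 29.01, 21.04 and 31.6 CPM in the preparations and 0 counts in all 4 spleens, which makes it at least 714-fold higher against a floor of 3 counts over the spleens together. The heparan sulfate sulfotransferase Hs3st2 had 86.03 ± 36.8 CPM (SD, n = 5) against 4 counts in the 4 spleens. The formyl peptide receptor Fpr1 and the diacylglycerol kinase Dgki had 68.2 and 66.8 CPM in the preparations, against 8 counts each over the spleens. Without spleen replicate 1 the difference of Fpr1 was 10.77 in place of 9.25, and without spleen replicate 2 that of Dgki was 11.48 in place of 9.24. The noncoding 4931431B13Rik (chr7:128192050-128203328, minus strand) lies within the span of Itgad on the other strand, with the same limit as Cox6a2. The others were Ccr3, Fosb, Itgad, Mrc1 and Fos. The 10 in the lower direction were Ccl21a, the pericyte regulator Rgs5, the noncoding AI838599, Ccl19, the acute phase inhibitor Serpina3n, Dcn, Igfbp5, Dpt and the desmosomal cadherins Dsc2 and Dsc3. Their levels lay between 22.7 and 732 CPM in the spleens and between 0.0527 and 1.33 CPM in the preparations.

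The same contrast in the PM2.5 libraries repeated most of these differences in separate samples. There, 4323 of 16559 genes tested were higher (26.1%) and 5126 lower (31.0%). Of 10613 genes called in air and tested in PM2.5, 10300 differed in the same direction. Genes higher in both made 73.7% of those higher in air and 89.5% of those higher in PM2.5, and genes lower in both made 74.0% and 84.2%. Macrophage PM2.5 replicate 1 carries a treatment tag of air, against its title and description, and was kept in the PM2.5 group. All 18 red pulp macrophage genes were higher in PM2.5 as well, at a median of 4.62 in place of 5.56. Cd163 differed by 6.22 ± 0.38 (SE, adjusted p = 1.94e-07) in PM2.5, with 785 CPM in the preparations and 10.6 CPM in the spleens, and Slc40a1 by 5.04 ± 0.24 (SE, adjusted p = 4.16e-08), with 3119.5 and 94.96 CPM. The mean levels of the preparations were near those in air for both genes, and those of the spleens lay above the means of the air spleens. Air and PM2.5 libraries were scaled apart, and this difference between exposures was not tested here. Fos and Fosb differed by 8.09 and 9.11 in PM2.5, Cd3e by -3.60, Ccl21a by -8.38 and Mfge8 by -3.70.

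Erythroid and mitochondrial genes did not repeat. Of the 30 erythroid genes, 0 were higher and 1 was lower in PM2.5, at a median of 0.19, against 27 higher in air. Hba-a1 had 2255 CPM in the PM2.5 preparations and 3354 CPM in the PM2.5 spleens, against 2145 and 491 CPM in air. The preparations had similar means in both exposures, which were scaled apart, and the spleens had the lower mean in air. This difference between exposures was not tested here. Of the 13 mitochondrially encoded genes, 0 were higher and 1 was lower in PM2.5. Ribosomal protein genes remained lower, 70 of 75, at a median of -0.86 in place of -1.61. Plasma cell genes were higher in PM2.5 for 10 members and lower for 1, against 2 and 2 in air. Whether the contrast differed between air and PM2.5 was not tested here.

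**Figure D5:**
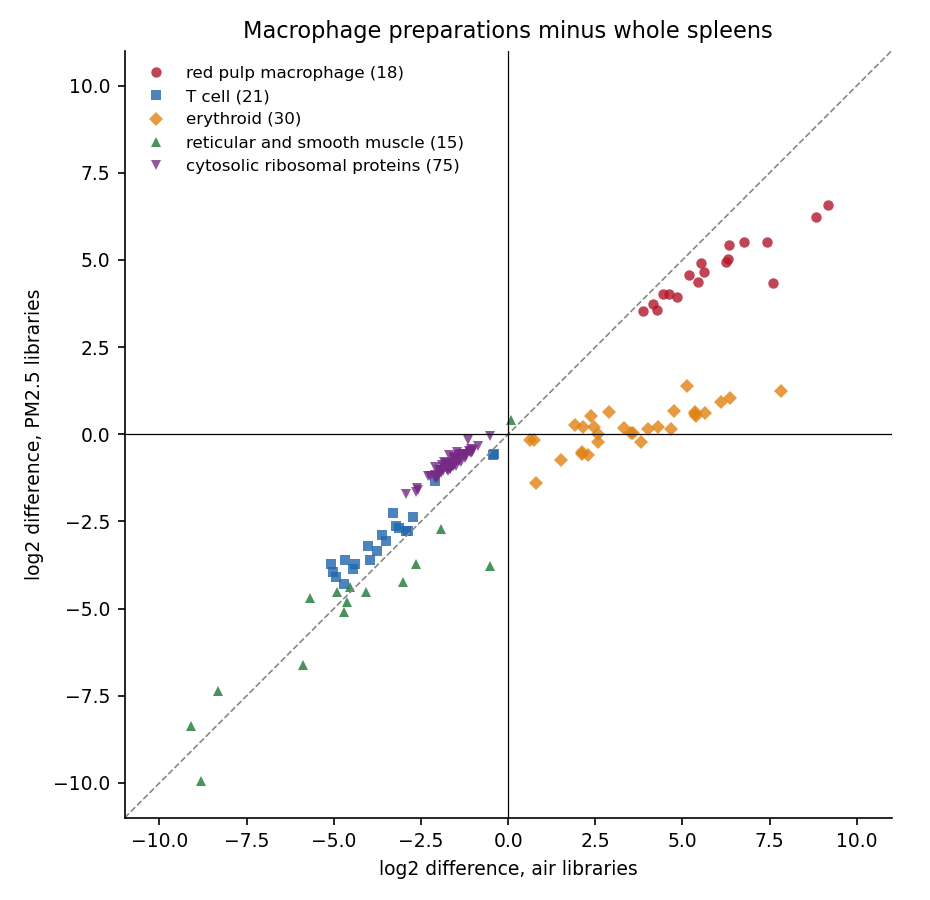
Log2 difference, macrophage preparations minus whole spleens, of the members of 5 gene lists in air libraries (horizontal) and in PM2.5 libraries (vertical), with the number of members in brackets and the line of equal values dashed. Erythroid genes lie above 0 in air and near 0 in PM2.5, where their median is 0.19, and the other lists keep their side in both apart from single members.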

How the data were processed

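Polyadenylated RNA of 18 mouse samples was sequenced from libraries made with a NEBNext Ultra II kit, per the labels. The authors deposited one table of raw read counts for all samples, in whole numbers by Ensembl gene identifier and not normalized. The submitters' processing notes name FastQC 0.10.1, HTSeq 0.10.0 and the builds mm10 and GRCm38. Aligner, annotation version and strandedness of counting were not given in the sources used here. Of 55414 identifiers, 52133 had a symbol in GENCODE M21, and the rest held 0.316% of the counts of the air libraries.

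Samples were grouped by title. Counts of the 9 air libraries were filtered with filterByExpr (minimum count 10, minimum total 15), scaled together with TMM and tested, two-sided, with the quasi-likelihood test of edgeR 4.0.16 in R 4.3.3, on group means. P-values were adjusted by Benjamini-Hochberg over all tested genes with a threshold of 0.05, and a size rule of 4-fold was added. The PM2.5 libraries were fitted alone in the same way. Depth of 16493694 to 29013034 counts limits precision at low levels, and the SE covers the spread between these samples. Groups not overlapping means that every library of one lay above every library of the other.

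The markers and the 42 gene lists were chosen with earlier results of these data known. Named were the 5 markers, the 10 largest differences per direction among called genes with a symbol, at least 20 CPM and no overlap (immunoglobulin and T cell receptor segments aside), up to 4 called members of a list per direction by p with at least 5 CPM, all members of 4 lists (red pulp and marginal zone macrophages, iron, macrophage factors) and 7 single genes. Ahsp was not matched, and 3 genes that this rule names are not reported here. Of the mesothelial list 2 of 10 genes were tested, with 1 lower, and of the liver and pancreas list 3 of 15, with 1 higher and 2 lower. Alternatives were other scalings, filters, tools (DESeq2 1.42.0, limma 3.58.1), a joint fit, a replicate block and leaving out each library. An offset for exon length and leaving out spleens 3 and 4 together were added after the data were seen. The steps were tested on simulated data.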

Additional observations from a re-analysis of the deposited data

Results flagged for a closer look

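A library's value was singled out when its gap to the nearest other library of its group was too large a share of the group's whole range for a group of that size, which chance gives in about 1 of 20 groups. Over the gene lists and the named genes, 42 of 520 groups of values held such a library.

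Spleen air replicate 1 accounted for 16 of them. It was the highest spleen for the macrophage genes Vcam1 (189 CPM), Slc40a1 (69.1 CPM), Spic (54.2 CPM), Hmox1 (148 CPM), Hfe (23.2 CPM), Acp2 (52.9 CPM) and Lyz2 (2641 CPM). It was also the highest for the globins Hba-a1 (1343 CPM) and Hbb-bs (1418 CPM), for Gfi1b (2.60 CPM), for S100a8 (23.8 CPM) and for the level of the neutrophil list (2.47 on the scale of mean log2(CPM + 1)). Col1a2 (131 CPM), AI838599 (35.9 CPM) and Fcrla (179.8 CPM) were highest there as well, and Id3 (43.3 CPM) was lowest. The part of this library's content in the differences was not tested, beyond the values without it given beside the results.

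Macrophage air replicate 5 accounted for 10, highest for Itgad (2253 CPM), Cox6a2 (73.8 CPM), Dgki (83.8 CPM), Fcgr1 (102 CPM), Itga9 (544 CPM), Npc1 (222 CPM) and S100a8 (16.2 CPM), and lowest for Tlr1 (92.1 CPM), Rpl35a (190.3 CPM) and the level of the T cell list (3.21). Macrophage air replicate 4 was highest for Ighm (19049 CPM), Jchain (1676 CPM) and Fcrl1 (148 CPM). Macrophage air replicate 2 was highest for Me1 (0.993 CPM), Itga6 (17.4 CPM), Dpt (0.467 CPM) and Rgs5 (0.175 CPM), and macrophage air replicate 3 for Cd63 (27.1 CPM).

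Among the other spleens, replicate 2 was highest for Gas6 (29.4 CPM), Me1 (13.7 CPM), Slc39a14 (14.5 CPM) and the level of the mesothelial list (1.35), and it alone held counts of Vsig4 (0.0479 CPM) and 4931431B13Rik (0.192 CPM). Csf1r was lowest in spleen replicate 3 (87.9 CPM) and Igfbp5 in spleen replicate 4 (68.4 CPM).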

How the results depend on the processing

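Under 23 other settings, 21 planned and 2 added after the data were seen, both counts of genes past the threshold stayed within 1.5 times of those reported, and so did the counts at 4-fold, except that without the filter on low counts 2449 genes were at least 4-fold higher and 2415 at least 4-fold lower. Leaving out single libraries gave 4891 to 5690 genes higher, 5185 to 5751 lower, 1476 to 1833 at least 4-fold higher and 1406 to 1563 at least 4-fold lower in air, and 3903 to 4930 higher and 4114 to 5219 lower in PM2.5. Total counts in place of TMM gave 4446 higher and 6385 lower, and the upper quartile 4173 and 6926. DESeq2 gave 5641 and 5431, and limma-voom 5450 and 5430.

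Of 5123 values of the 223 named genes under other settings, 5025 kept their direction and side of the threshold, 67 lost the call, 25 gained it and 6 turned in direction, none of which had passed. With the upper quartile Keap1 was -0.0053, Pcbp2 -0.047 and Slc39a14 -0.15. With total counts Slc39a14 was -0.072 and with the exon length offset -0.25, and S100a8 was -0.49 with spleen replicates 3 and 4 left out. The causes were not tested. With spleen replicates 3 and 4 left out, differences that moved by over 1.5 times and still passed were those of Itgad (8.34), Ccr3 (8.91), Fcgr1 (6.73), Fcgr4 (5.68), Cela1 (4.56), Dgki (8.26), Fpr1 (8.66), Retnlg (5.03), Vsig4 (6.84), 4931431B13Rik (9.66) and Hs3st2 (11.36).

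The labels give both groups the numbers 1 to 4. With the number as a replicate block, 4900 genes were higher and 4832 lower in air, 1606 and 1382 of them at least 4-fold, and 3463 and 3861 in PM2.5. Same-numbered libraries did not deviate together, with correlations of -0.03, 0.02, 0.12 and 0.0047, and 1 of the 4 numbers matched best with its own, so the samples were not treated as paired. Depth limits genes with a few counts in one group, such as Vsig4 and Hs3st2, whose log2 differences depend on single counts.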

Other observations

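Some further genes of the lists, except Cela1 and Alb, were named after their values were seen. C6, a component of the membrane attack complex made mainly by the liver, had 457 ± 87.7 CPM (SD, n = 5) in the macrophage preparations. In the whole spleens it had 1.08 ± 1.04 CPM (SD, n = 4). The difference was 8.77 ± 0.52 (SE, adjusted p = 7.08e-08), or 9.50 without spleen replicate 1. The liver transcript Alb had at most 1 count in any preparation, and the source of the C6 reads was not tested. Cfp, properdin, which stabilises the alternative complement pathway, differed by 3.51 ± 0.17 (SE, adjusted p = 1.61e-08), and C3 itself was lower, at 305 against 617 CPM. Cela1, an elastase first known from the pancreas, had 91.1 against 2.44 CPM, a difference of 5.26, or 6.01 without spleen replicate 1. Among lysosomal proteases, Ctsb had 6048 against 523 CPM and Ctsk, the cathepsin of osteoclasts, was the 1 lower member at 0.530 against 3.88 CPM.

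Of 406 tested lincRNA genes, 23.9% were higher and 42.9% lower, against 33.9% and 34.5% of 13312 protein-coding genes. Of 28 tested histone genes, 11 were higher and 2 lower, at a median of 0.16.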
